A study of Mus musculus with 4 samples.

Results

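The 10 genes described here mark macrophages, and in the brain microglia, and were followed in tibialis anterior (TA) muscle: Adgre1, Csf1r, Cd68, Mrc1, Cd163, C1qa, C1qb, C1qc, Lyz2 and Tyrobp. They were chosen by symbol, with earlier results of these data known. Among the 13825 genes of the deposited count table, 10 of 10 were present. The RNA came from adult male wild-type mice (WT, strain C57BL/6J by the study's methods) and mice lacking Fgf21 in the whole body (Fgf21KO), whose strain background is not given in the sources used here. In both genotypes the left sciatic nerve was cut, with a piece of 2 mm removed by the series' design text (the study's methods describe a longer segment). TA muscles were frozen 14 days later. Control muscles carry the label sham and, by the series' design text, came from the right leg with its nerve intact. The study's methods describe a sham operation on the opposite leg and, for gene expression in general, both operations in the same mice. The 4 groups are abbreviated WS and WD for sham and denervated muscle of WT mice, and KS and KD for the same of Fgf21KO mice, and unlabelled sets of 4 values follow that order. RNA of 4 muscles was pooled into 1 library per group, so the spread between mice was not measured and no difference between a pair of libraries has a replicate check. Because the knockout is in every tissue, a difference between genotypes in muscle RNA cannot be placed in any one cell type.

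Macrophages live in skeletal muscle between the fibres and around vessels and nerves, and further cells arise from blood monocytes after injury. They clear debris, present antigen and send signals to muscle stem cells and fibroblasts. Microglia are the resident macrophages of the central nervous system and share most of these transcripts with other tissue macrophages. Adgre1 encodes the surface receptor F4/80, and Csf1r the receptor for the growth factors that keep macrophages alive. Cd68 is a glycoprotein of lysosomes and endosomes, Mrc1 the mannose receptor CD206 and Cd163 the scavenger receptor for haptoglobin-bound haemoglobin. C1qa, C1qb and C1qc encode the 3 chains of C1q, which starts the classical complement cascade, Lyz2 is lysozyme and Tyrobp the signalling adaptor DAP12.

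Total counts over the table ran from 25249879 to 34141303, and the 3-count detection floor lay between 0.0919 and 0.129 CPM (counts-per-million, scaled by TMM factors from edgeR). Each member had between 19 and 753 reads in a library, and 10 of 10 had a mean of 10 or more reads over the libraries, the filter that 13084 genes passed in all. Intervals on single genes are 95% intervals that cover counting error only, not the spread between mice. Fgf21 itself was not analysed here, so the labels of the knockout libraries were not checked on that gene. The labels of surgery were checked on Runx1, a transcription factor induced in denervated muscle, which had 44 reads (WS), 5422 (WD), 53 (KS) and 5459 (KD). Gadd45a, Ncam1 and Fbxo32, which also respond to loss of the nerve, were higher in both denervated libraries, and the 4 genes passed edgeR's quasi-likelihood test.

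All 10 members were higher in both denervated libraries than in both sham libraries, as were 38.1% of all tested genes, and 0 members lay below in both, against 36.7% of all genes. The 10 genes summed to 34.1 CPM (WS), 76.1 (WD), 37.7 (KS) and 75.8 (KD). The median log2 ratio of the members was 1.09 for WD vs WS and 0.82 for KD vs KS, where the median of all tested genes was 0.01 in both. Without Cd68 the members' medians were 1.05 and 0.68. In bulk muscle RNA, more cells of a type and more RNA per cell cannot be told apart.

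**Figure D1:**
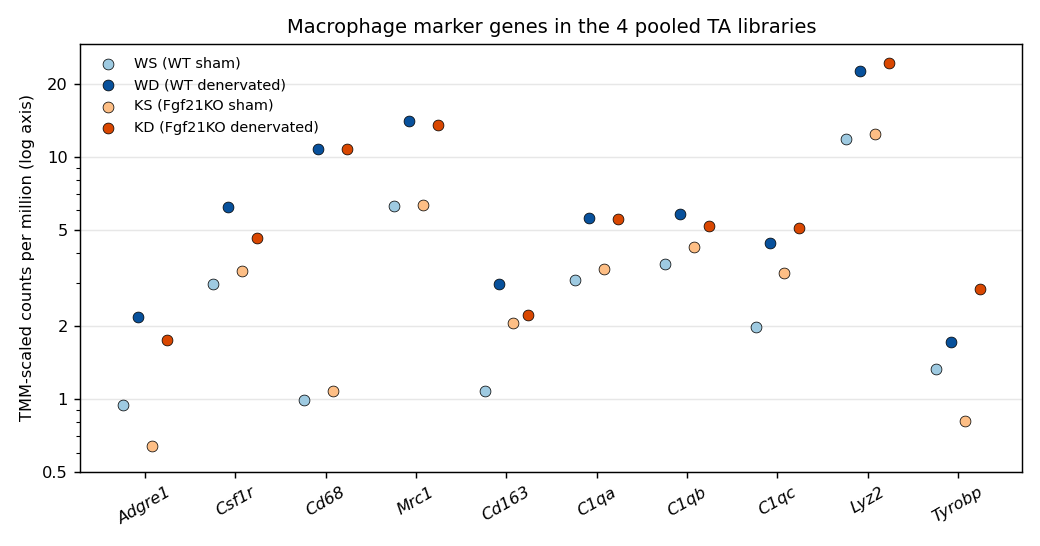
TMM-scaled CPM (log axis) of the 10 macrophage marker genes in the 4 pooled TA libraries, 1 point per library and therefore with no error bars. For each gene both denervated points (WD, dark blue and KD, dark orange) lie above both sham points, most widely for Cd68, whose denervated points are at 10.7 and 10.8 CPM against 0.99 and 1.08 in sham.

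Cd68, the lysosomal member, differed most. It had 23 reads (WS), 350 (WD), 32 (KS) and 333 (KD), which is 0.99, 10.7, 1.08 and 10.8 CPM. Both denervated libraries stood about an order of magnitude above both sham libraries, and the 2 genotypes lay close together within each surgery. The fold was 10.8 in WT (log2 3.35, interval 2.83 to 4.11) and 9.99 in Fgf21KO (log2 3.24, interval 2.80 to 3.89). Ranked by log2 ratio from the highest, Cd68 was gene 62 of 13084 in WD vs WS and gene 74 in KD vs KS. Its share of the summed CPM of the 10 members went from 2.90% in WS to 14.1% in WD, and from 2.86% in KS to 14.2% in KD. Relative to Mrc1 in the same library, the Cd68 CPM was 0.158 (WS), 0.764 (WD), 0.171 (KS) and 0.799 (KD), so the genes of the set did not move in proportion.

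Cd68 lies on the minus strand of chromosome 11, at 69664213 to 69666153 of GRCm38 (GENCODE M21). Its nearest upstream neighbour on the same strand is Eif4a1, a translation initiation factor made in most cells, whose annotated end is 782 bases before the start of Cd68. Eif4a1, singled out after its values were seen, had 2482 reads (WS), 10924 (WD), 3011 (KS) and 9868 (KD), and its log2 ratio was 1.65 for each genotype. Cd68 CPM was 0.927% of Eif4a1 CPM (WS), 3.20% (WD), 1.06% (KS) and 3.38% (KD). The part of reads running on from Eif4a1 in the Cd68 count was not tested.

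The promoters of Cd68, C1qb and C1qc are printed because they stand for the member with the largest ratio and for a pair of adjacent genes with smaller ones. Each runs from 250 bases before to 50 after the RefSeq start on GRCm38.p6, minus strand, and capitals mark matches on either strand of GAGGAA, the core bound by PU.1 and other ETS factors (written TTCCTC on the other strand), and of TGANTCA, the AP-1 motif. The windows are chr11:69666121-69666420, chr4:136886151-136886450 and chr4:136892865-136893164.
Cd68: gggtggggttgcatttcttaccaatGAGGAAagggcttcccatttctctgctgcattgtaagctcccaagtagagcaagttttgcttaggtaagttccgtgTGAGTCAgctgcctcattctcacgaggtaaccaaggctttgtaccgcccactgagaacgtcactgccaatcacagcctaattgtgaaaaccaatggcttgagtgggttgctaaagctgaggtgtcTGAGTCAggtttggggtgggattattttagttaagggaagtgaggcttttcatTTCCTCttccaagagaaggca
C1qb: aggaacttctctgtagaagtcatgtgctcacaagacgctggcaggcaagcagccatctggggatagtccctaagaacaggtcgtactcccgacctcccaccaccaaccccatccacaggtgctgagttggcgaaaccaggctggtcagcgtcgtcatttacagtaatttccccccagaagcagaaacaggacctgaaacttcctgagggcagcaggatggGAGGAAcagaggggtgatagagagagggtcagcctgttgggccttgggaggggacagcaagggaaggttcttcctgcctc
C1qc: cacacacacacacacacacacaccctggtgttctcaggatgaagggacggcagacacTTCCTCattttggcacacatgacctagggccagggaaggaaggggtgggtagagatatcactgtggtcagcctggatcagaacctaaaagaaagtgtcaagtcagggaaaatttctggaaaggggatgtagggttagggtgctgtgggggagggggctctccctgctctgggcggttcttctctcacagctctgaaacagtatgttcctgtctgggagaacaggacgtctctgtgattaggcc
Of the 10 members, 6 had their promoter examined here (C1qb, C1qc, Cd163, Cd68, Lyz2 and Mrc1). The promoters of the other members were left out, so the member counts below hold for these 6 only. GAGGAA was found in 4 of these 6 (Mrc1, C1qb, C1qc and Cd68) and in 28.3% of all 32851 promoters of that length. TGANTCA was found in 1 of 6, Cd68, with 2 matches that start 149 and 24 bases before the start site, where 7.81% of all promoters held at least 1 match and 0.46% at least 2. The E-box CACGTG and the letters TATAAA were in 0 of 6, against 7.15% and 13.6% of all promoters. These motifs were picked with the sequences in view, do not overlap each other here, and describe letters rather than bound sites.

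Adgre1, the F4/80 receptor, had 22 reads (WS), 71 (WD), 19 (KS) and 54 (KD) (0.947, 2.18, 0.640 and 1.75 CPM). Both denervated libraries were above both sham libraries, and the log2 ratio was 1.14 in WT (interval 0.49 to 1.96) and 1.36 in Fgf21KO (interval 0.67 to 2.29). Csf1r, the growth factor receptor, had 69 reads (WS), 203 (WD), 100 (KS) and 143 (KD) (2.97, 6.22, 3.37 and 4.62 CPM). The WT denervated library held the highest Csf1r level, and its log2 ratio was 1.05 in WT (interval 0.67 to 1.48) and 0.45 in Fgf21KO (interval 0.08 to 0.84). The gene overlaps Hmgxb3 on the opposite strand over 873 of its 5774 exon bases (15.1%). Hmgxb3 stayed within 689 to 753 reads, and since the strand setting of the counting is not given in the sources used here, reads of the overlap cannot be told apart.

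Mrc1, the mannose receptor carried by many resident macrophages, had 146 reads (WS), 458 (WD), 187 (KS) and 417 (KD) (6.29, 14.0, 6.30 and 13.5 CPM). The sham libraries were nearly equal, as were the denervated ones, and the log2 ratio was 1.15 in WT (interval 0.89 to 1.44) and 1.09 in Fgf21KO (interval 0.85 to 1.36). Cd163, which takes up haemoglobin, had 25 reads (WS), 97 (WD), 61 (KS) and 69 (KD) (1.08, 2.97, 2.05 and 2.23 CPM). Here WS stood low and WD high, with both Fgf21KO libraries between them. The log2 ratio was 1.41 in WT (interval 0.82 to 2.16) and 0.12 in Fgf21KO (interval -0.40 to 0.64). The ratio of Cd163 to Mrc1 CPM within a library was 0.171 (WS), 0.212 (WD), 0.326 (KS) and 0.166 (KD).

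The C1q genes lie side by side on the minus strand of chromosome 4 (GRCm38), C1qb at 136880129 to 136886187, C1qc at 136889804 to 136893065 and C1qa at 136895917 to 136898803. Summed, they gave 8.70 CPM (WS), 15.8 (WD), 10.98 (KS) and 15.8 (KD). The denervated sums were equal to the digits shown, while the sham sums differed. C1qa had 72 reads (WS), 182 (WD), 102 (KS) and 171 (KD), and log2 ratios were 0.83 in WT (interval 0.45 to 1.26) and 0.68 in Fgf21KO (interval 0.33 to 1.06). C1qb had 84, 189, 126 and 160 reads in the same order, and its ratios were 0.67 in WT (interval 0.30 to 1.07) and 0.28 in Fgf21KO (interval -0.06 to 0.63). C1qc had 46, 144, 98 and 157 reads, and its ratios were 1.13 in WT (interval 0.67 to 1.67) and 0.61 in Fgf21KO (interval 0.25 to 1.0). The 3 chains had more scaled reads in both denervated libraries than in both sham libraries, but the C1qb interval in Fgf21KO included 0, as did the intervals of the difference between genotypes for all 3 (for C1qc -1.14 to 0.07). The ratio of C1qc to C1qb CPM was 0.548 (WS), 0.762 (WD), 0.778 (KS) and 0.981 (KD).

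Lyz2, the lysozyme of macrophages and neutrophils, had 275 reads (WS), 735 (WD), 370 (KS) and 753 (KD) (11.8, 22.5, 12.5 and 24.3 CPM). It was the most abundant member in every library, and its log2 ratio was 0.92 in WT (interval 0.73 to 1.13) and 0.96 in Fgf21KO (interval 0.79 to 1.15). Its near-identical paralog Lyz1, chosen after its values were seen, had 34, 86, 38 and 36 reads, and the split of reads between the paralogs is uncertain. The ratio of Lyz1 to Lyz2 CPM was 0.0478 in KD and 0.103 to 0.124 in the other libraries. Tyrobp, the DAP12 adaptor, had 31 reads (WS), 56 (WD), 24 (KS) and 88 (KD) (1.33, 1.72, 0.808 and 2.85 CPM). Both Fgf21KO libraries lay outside the range of the WT ones, KS below and KD above. The Tyrobp log2 ratio was 0.35 in WT (interval -0.30 to 1.05) and 1.73 in Fgf21KO (interval 1.15 to 2.53).

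**Figure D2:**
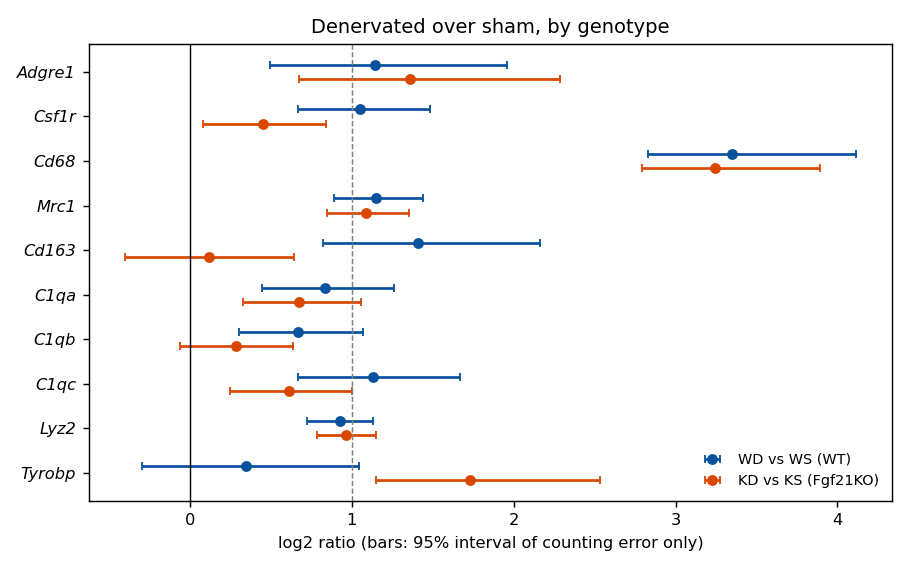
Log2 ratio of denervated over sham for each member, in WT (blue) and Fgf21KO (orange), with bars for the 95% interval of counting error only and a dashed line at a 2-fold ratio. Cd68 stands apart at 3.35 and 3.24, and the genotypes lie farthest apart at Tyrobp (0.35 and 1.73) and Cd163 (1.41 and 0.12).

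By size alone, 6 of 10 members exceeded a 2-fold increase in WD vs WS, where 7.18% of all tested genes were, and 0 were at least 2-fold lower, against 7.61%. In KD vs KS these numbers were 4 of 10 against 7.51% and 0 against 6.1%. The 6 in WT were Adgre1, Csf1r, Cd68, Mrc1, Cd163 and C1qc, and the 4 in Fgf21KO were Adgre1, Cd68, Mrc1 and Tyrobp. Ratios above 0 were seen for 10 of 10 members in each genotype, against 50.5% of genes for WD vs WS and 50.8% for KD vs KS. The counting interval lay above 0 for 9 members in WT (all but Tyrobp; 33.0% of all genes) and for 8 in Fgf21KO (all but Cd163 and C1qb; 33.6%). On the deposited log2 values, which add 1 to each scaled count, 2 members were at least 2-fold higher in each genotype, against 4.36% of all tested genes in WT and 4.52% in Fgf21KO.

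Over the 4 libraries, surgery and genotype were fitted together in an additive model, which assumes the same response in both genotypes and leaves 1 residual degree of freedom. That residual is the difference in response between the genotypes of pooled libraries, so the p-values do not cover the spread between mice. In edgeR's quasi-likelihood test, 4 of 10 members rose with denervation at an adjusted p below 0.05 and at least a 2-fold change, namely Cd68, Adgre1, Mrc1 and Tyrobp, where 6.84% of all tested genes were called higher. No member was called lower (0 of 10), against 6.24%. By this test the log2 change was 3.37 for Cd68 (adjusted p = 1.37e-13), 1.13 for Mrc1 (1.03e-07), 1.31 for Adgre1 (0.00238) and 1.09 for Tyrobp (0.0108). Without the fold threshold, 8 members passed in the upward direction (26.6% of all genes) and 0 downward (27.0%). The 4 added ones were Lyz2 (log2 change 0.95), C1qc (0.86), C1qa (0.76) and Csf1r (0.76), with adjusted p from 4.4e-08 to 0.00471 in edgeR's test. DESeq2's Wald test on the same counts called 2 members higher, Cd68 and Mrc1, against 5.37% of all genes, with adjusted p of 0.081 for Adgre1 and 0.148 for Tyrobp. With scaling by total counts only, edgeR's test called 9 members higher (13.03% of all genes), and 1705 genes higher and 324 lower in all, against 895 and 816 with TMM. C1qb and Cd163 did not pass in the TMM fit, at 0.48 and 0.73 with adjusted p of 0.0516 and 0.0542. The assumption of equal responses bears most on Tyrobp, Cd163 and Csf1r, whose ratios lay farthest apart between genotypes.

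The response in Fgf21KO minus that in WT was 1.39 for Tyrobp (interval 0.55 to 2.36), -1.29 for Cd163 (interval -2.15 to -0.54) and -0.60 for Csf1r (interval -1.15 to -0.07). The interval lay above 0 for 1 of 10 members, where it did for 14.2% of all tested genes, and below 0 for 2 of 10, where it did for 15.9%. The remaining 7 intervals included 0, from the narrow one of Lyz2 (-0.23 to 0.31) to the wide one of Adgre1 (-0.77 to 1.27). That of Cd68 ran from -0.92 to 0.69. With 1 library per group, these differences carry counting error only, and whether they exceed the spread between mice was not measured.

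Between genotypes, 0 of 10 members were at least 2-fold apart in either surgery. The shares of all genes at least 2-fold higher and lower were 0.887% and 1.15% in KS vs WS, and 0.841% and 0.711% in KD vs WD. In sham muscle 8 of 10 ratios were above 0 (49.7% of genes) with a median of 0.13, and in denervated muscle 4 of 10 were (48.7%) with a median of -0.035. The signs of Mrc1 and Lyz2 in KS vs WS and of Cd68 in KD vs WD, at log2 ratios of 0.00, 0.07 and 0.01, flip when libraries are scaled by total counts only.

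In KS vs WS the counting interval lay above 0 for Cd163 (log2 ratio 0.89, interval 0.24 to 1.67) and C1qc (0.72, interval 0.22 to 1.28), 2 of 10 members against 17.2% of genes. In KD vs WD it lay above 0 for Tyrobp (0.71, interval 0.23 to 1.24; 12.9% of genes) and below 0 for Csf1r (-0.42, interval -0.75 to -0.11; 15.4%). The other 8 intervals in each comparison included 0. These member counts lie near the shares over all genes, and the intervals cover counting error only. In edgeR's quasi-likelihood test of genotype, 0 members were called higher (0.0611% of genes) or lower (0.115%), and 0 passed without the fold threshold (0.313% and 0.359%). The members' adjusted p ran from 0.694 to 0.997, 0 had an unadjusted p below 0.05, the lowest being 0.0775 for C1qc, and DESeq2's Wald test also called 0.

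**Figure D3:**
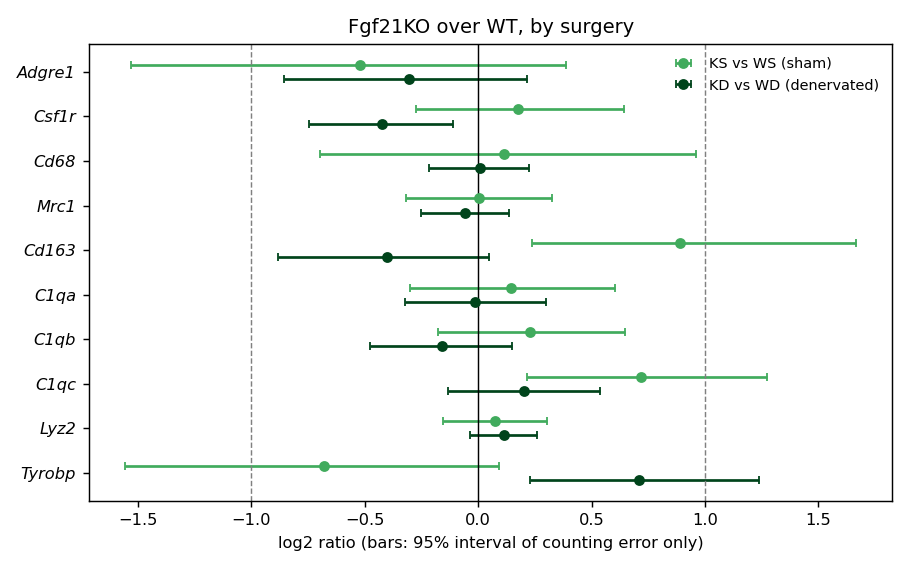
Log2 ratio of Fgf21KO over WT for each member in sham (light green) and denervated muscle (dark green), with bars for the 95% interval of counting error only and dashed lines at 2-fold ratios. Most intervals cross 0, and Cd163 and Tyrobp change sides between sham (0.89 and -0.68) and denervated muscle (-0.40 and 0.71).

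Levels of different genes can be set side by side only per length. Divided by the exon length of each gene (GENCODE M21), Lyz2 ranked first in all 4 libraries, at 8.995 CPM per kb (WS), 17.1 (WD), 9.47 (KS) and 18.5 (KD). Cd68 ranked seventh in both sham libraries (0.788 and 0.857 CPM per kb) and second in both denervated ones (8.53 and 8.56). In WS and KS, C1qb and C1qa came after Lyz2, at 3.32 and 2.98 CPM per kb in WS and 3.90 and 3.30 in KS, and these neighbours did not differ beyond their counting intervals in any library. Tyrobp, at 2.00 CPM per kb in WS and 1.21 in KS, reached 2.57 in WD and 4.27 in KD, and in KD it did not differ from C1qb beyond the interval. Mrc1 was sixth in sham (0.986 and 0.988 CPM per kb) and seventh in denervated muscle (2.20 and 2.12). Adgre1 and Cd163 were the lowest pair in every library, between 0.197 and 0.672 CPM per kb, and differed from each other beyond the interval only in KS.

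The genes whose 3 log2 ratios (WD vs WS, KD vs KS and KS vs WS) lay nearest to the members' medians, among genes averaging 100 or more reads, were Thumpd3, Hmgb3, Trmt6, Gabarapl1 and Rpl27a. Their root mean square distance was 0.021 to 0.039 on the log2 scale over these 3 ratios from 4 libraries. Thumpd3, for example, had 313, 936, 449 and 822 reads in WS, WD, KS and KD. The named genes, which are not macrophage markers, were picked as the nearest among all genes averaging 100 or more reads. Their closeness therefore does not show how far the pattern is particular to macrophage markers.

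Other transcripts of macrophages give the setting of the members. Of 30 further genes expressed across macrophages, listed with results of these data known, 27 were tested, with median log2 ratios in WT and Fgf21KO of 0.87 and 1.01, and 15 rose and 3 fell in edgeR's quasi-likelihood test. Among them were Itgb2, the common chain of leukocyte integrins (12, 66, 15 and 54 reads in WS, WD, KS and KD), and Ctss, a lysosomal protease (41, 191, 64 and 213 reads). Both rose, with log2 ratios of 1.84 and 1.66 for Itgb2 and 1.69 and 1.65 for Ctss. The transcription factor Maf, which is also made in muscle fibres and other cells, fell, by 1.82 in both genotypes on the log2 scale. The list held genes of both directions, whereas the 10 members were higher without exception. The members too were chosen with earlier results of these data known, so this contrast may reflect the choice of genes.

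Among 8 tested genes of resident macrophages, 0 rose and 1 fell, and the medians were 0.44 in WT and -0.17 in Fgf21KO. Folr2, a folate receptor, had 6, 20, 10 and 14 reads, Clec10a, a lectin, 18, 43, 26 and 41, and Lyve1, the hyaluronan receptor, 18, 21, 61 and 25. Stab1, a scavenger receptor shared with endothelium, had 547, 291, 534 and 331 reads and was the one that fell. The Lyve1 ratio of WD vs WS (-0.24) changes sign with scaling by total counts only. Of 7 tested monocyte genes 2 rose and 1 fell, with medians of 0.145 in WT and 0.078 in Fgf21KO. Without the fold threshold 2 passed upward and 3 downward (26.6% and 27.0% of all tested genes). The 2 that rose were Ccr2, the receptor for monocyte chemoattractant (39, 178, 45 and 140 reads; log2 ratios 1.66 and 1.54), and Itgal, an integrin chain (0.61 and 1.41). Nr4a1, an immediate early gene also active in fibres, fell, by 1.76 and 2.87. Ace, shared with endothelium, had ratios of -0.81 and -0.83. Ly6c2, a further gene of the list named after its values were seen, had 66, 59, 100 and 58 reads, with ratios of -0.63 and -0.82.

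Of 12 tested genes of lipid-handling macrophages, 4 rose and 1 fell, with medians of 0.52 and 0.51. Lgals3, a galactoside-binding lectin, had 33 reads (WS), 1095 (WD), 35 (KS) and 1460 (KD) (log2 ratios 4.50 and 5.24). Spp1, the secreted protein osteopontin, had 82, 2283, 70 and 1355 reads (4.28 and 4.18). Both genes exceeded the ratio of Cd68, and both are known in other cells of injured muscle too. Lpl, lipoprotein lipase, fell by 1.19 and 1.60, and Cd9, a tetraspanin, had ratios of -0.90 and -0.55. Of 5 tested inflammatory genes 2 rose, the receptors for microbial products Tlr4 (82, 1053, 99 and 1079 reads; ratios 3.17 and 3.36) and Tlr2 (17, 140, 19 and 143 reads; 2.44 and 2.73). Il18 had ratios of 1.18 in WT and -0.26 in Fgf21KO on 6 to 22 reads, and Casp1 -0.07 and 0.17 on 15 to 20, and the negative signs of both depend on the scaling. Of 6 tested alternative activation genes 0 were called at the 2-fold threshold, and 3 passed downward without it (27.0% of all tested genes). Their medians were -0.30 and -0.44, with Il4ra at 0.19 and 0.14, Pparg at -0.46 and 0.06, Tgm2 at -0.35 and -0.40, and Cd36 at -0.69 and -0.73.

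The microglial name of the set was checked on genes that define microglia. Of 12 listed, 6 were tested, with medians of -0.05 in WT and 0.67 in Fgf21KO, and 2 rose, Fcrls (7, 53, 32 and 52 reads) and the fractalkine receptor Cx3cr1 (4, 25, 12 and 22 reads). Tmem119, a defining gene chosen here after its values were seen, had 30, 33, 22 and 41 reads, and P2ry12, likewise, 5, 13, 10 and 9, too few to be tested. Olfml3 had ratios of 0.04 and 0.14. The 10 genes are therefore described here as macrophage markers of muscle, with no reading as microglia.

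On the side of the ligands, the median of 7 tested CSF1R ligands and chemokines was 0.91 in WT and 0.78 in Fgf21KO, with 3 called higher and 1 lower. Cx3cl1, the ligand of Cx3cr1, had 34, 217, 60 and 128 reads (log2 ratios 2.13 and 1.01), and Ccl9, a chemokine of myeloid cells, 19, 91, 30 and 68 (1.69 and 1.07), and both rose. Il34, a ligand of Csf1r, had 106, 84, 142 and 71 reads, with ratios of -0.81 and -1.04. Csf1, the other ligand, added after its values were seen, had 245, 243, 255 and 147 reads, with ratios of -0.50 and -0.84. In the fit over both genotypes neither was called at the 2-fold threshold (log2 change -0.94 for Il34 and -0.67 for Csf1). Both passed downward without it (27.0% of all tested genes), as Csf1r passed upward (26.6%). The receptor Csf1r was thus higher in both denervated libraries while both ligands were lower. Cxcl12 fell, by 1.02 and 1.01.

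Of 10 tested genes around ITAM signalling, the motif through which Tyrobp acts, 3 were called higher and 0 lower, with medians of 0.30 and 0.37. The 3 are receptors, Sirpa, Pirb and Siglec1 (the last chosen after its values were seen), of which Sirpa and Pirb carry inhibitory motifs, and no kinase or phospholipase of the list was called. Sirpa, the inhibitory receptor for CD47, had 100, 605, 132 and 568 reads (log2 ratios 2.09 and 2.03), and Pirb, an inhibitory receptor, 21, 51, 22 and 56 (0.75 and 1.22), and both rose. Plcg2 and Lyn, a phospholipase and a kinase of the pathway, had ratios of -1.16 and -0.53, and of -0.64 and -1.06. These 2 genes passed downward only without the fold threshold (27.0% of all tested genes). Beside the C1q genes, 0 of 17 tested complement genes were called for denervation in either direction at the 2-fold threshold, with medians of 0.28 and 0.05. Without that threshold 4 passed upward and 1 downward (26.6% and 27.0% of all tested genes). The anaphylatoxin receptors C3ar1 (11, 40, 16 and 26 reads) and C5ar1 (12, 28, 7 and 14) had ratios of 1.25 and 0.58, and of 0.66 and 0.78, the protease C1s1 of -0.63 and -0.57, and Cfd of -0.21 and -0.30, the last with a sign that depends on the scaling. Cd59a, an inhibitor of the final complement pore, had 588, 637, 1501 and 1606 reads and was higher in Fgf21KO, by 0.996 (KS vs WS) and 1.41 (KD vs WD) on the log2 scale (edgeR's test of genotype, adjusted p = 2.44e-09). Its paralog Cd59b makes the split of reads uncertain.

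**Figure D4:**
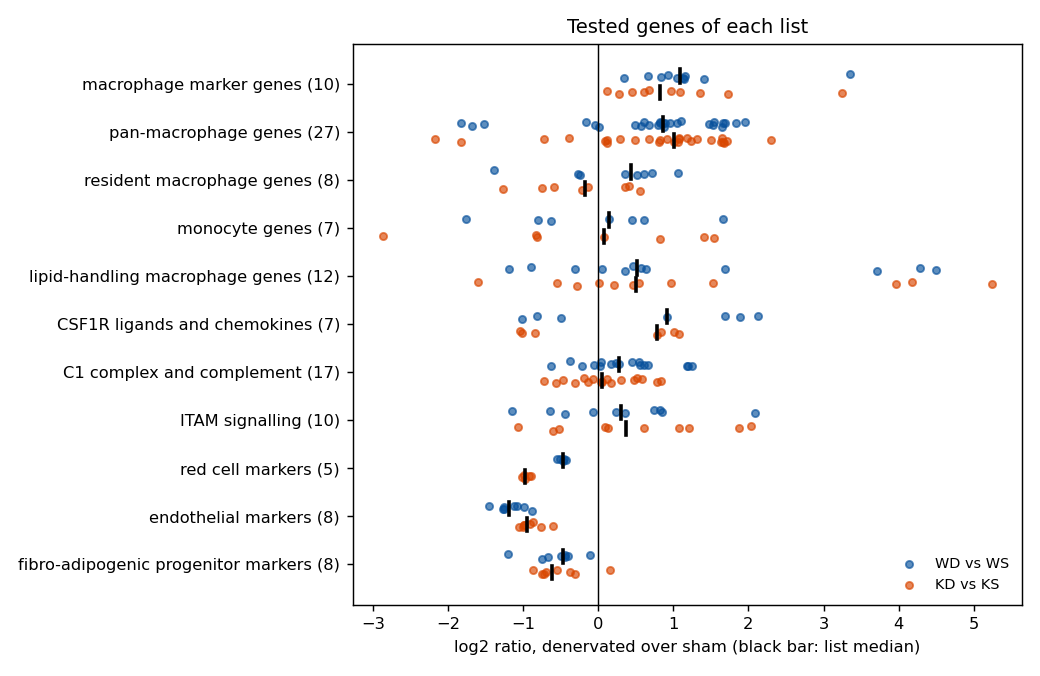
Log2 ratios of denervated over sham for the tested genes of each list (number in brackets), with WT in blue and Fgf21KO in orange and a black bar at each list's median. The 10 marker genes lie right of 0 throughout, with medians of 1.09 and 0.82, the endothelial markers left of 0, with medians of -1.19 and -0.95, and most other lists on both sides.

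Markers of other cells moved with surgery as well. Of 9 neutrophil markers 2 were tested, S100a9 (9, 30, 9 and 17 reads) and Csf3r (12, 15, 3 and 10), with 0 called and a summed level of 0.904 CPM (WS), 1.38 (WD), 0.404 (KS) and 0.873 (KD). Each of the T and NK cell, B cell, dendritic cell and mast cell lists had 1 tested gene. Blnk rose (40, 333, 71 and 236 reads), Cd247 (74, 45, 76 and 41) and Kit (136, 63, 113 and 51) fell, and Zbtb46 had 229, 270, 236 and 220 reads. The defining genes Cd3e, Itgax and Cpa3 were not analysed here.

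Of 8 endothelial markers 5 fell and 0 rose, and their summed level was 672.9 CPM (WS), 292.6 (WD), 556.9 (KS) and 294.1 (KD). Pecam1 and Cdh5, adhesion molecules of vessels, had log2 ratios of -0.99 and -0.77, and of -1.26 and -1.06. The growth factor receptors Flt1 and Tek had -1.45 and -0.99, and -0.88 and -0.60. Of 8 fibro-adipogenic progenitor markers 0 were called at the 2-fold threshold, and 6 passed downward without it (27.0% of all tested genes). Their medians were -0.47 and -0.62, with Dcn at -0.12 and -0.55 (sign dependent on scaling in WT), Cd34 at -0.75 and -0.69, Col1a1 at -1.21 and -0.72, and Lum at -0.44 and 0.15.

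The 5 red cell genes, a measure of blood left in the muscle, summed to 288.9 CPM (WS), 208.1 (WD), 333.1 (KS) and 170.2 (KD). Of these genes 0 were called at the 2-fold threshold, and 5 passed downward without it (27.0% of all tested genes). Their medians of -0.47 and -0.97 had the opposite sign to those of the members, with Hbb-bs at -0.46 and -0.92, Hbb-bt at -0.42 and -0.99, Hba-a1 at -0.51 and -1.01 and Alas2 at -0.54 and -0.90. The 3 tested Schwann cell genes, Mbp and Ngfr among them, had medians of 0.02 and -0.33, with 0 called at the 2-fold threshold and 1 passing downward without it. Of the satellite cell genes Sdc4 rose (399, 1794, 518 and 1519 reads), while Vcam1 had 98, 125, 164 and 132 reads and Itga7 2708, 3503, 2923 and 2892. Myh1, a myosin of fast fibres, held 510937 to 641610 reads in each library. The part of these other cell types in the members' ratios was not tested.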

How the data were processed

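Per group, RNA of 4 TA muscles was pooled into 1 library with a stranded mRNA kit and sequenced. The authors deposited read counts per gene, not normalized, and a second table of log2 values named for FPKM. Multiplying the counts of a library by 1 factor, adding 1 and taking log2 returned the deposited log2 values (largest deviation 0.000712%), so this table holds scaled counts and was used only as an alternative. The submitters' processing notes name GRCm39 and FastQC. Aligner, counter and strand setting are not given in the sources used here. The study's methods name edgeR, with an adjusted p below 0.05 and an absolute log2 fold change of at least 1.

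Counts were analysed with R 4.3.3, edgeR 4.0.16 and DESeq2 1.42.0. The 13084 genes averaging 10 or more reads over the 4 libraries were kept, scaled by TMM, and given as log2 CPM with a prior count of 2. Intervals of a ratio are 95% Clopper-Pearson intervals, and those of a difference of ratios are normal intervals on log counts. Both use counts without the prior. Denervation and genotype were the terms of an additive model over 4 libraries, fitted with edgeR and tested by quasi-likelihood, with Benjamini-Hochberg adjustment over all tested genes (common biological coefficient of variation 0.068). In simulated data for denervation over 13084 genes, with 200 changed genes in each of 5 draws, 90.4% of 2-fold and 99.1% of 4-fold changes were recovered, with a mean of 5.2 and 13.4 unchanged genes called. Recovery there meant an adjusted p below 0.05 in edgeR's test with no fold threshold, so it does not describe the calls with that threshold. The draws used the common coefficient and equal responses in both genotypes, and did not cover the spread between mice.

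Groups follow the labels. The members and lists were chosen with earlier results of these data known. From each list the 2 highest and 2 lowest tested genes by mean log2 ratio were named, all genes of lists with fewer than 5, any gene called for genotype, and the 5 genes nearest to the members' medians. A few genes named by these criteria are not reported here. Alternatives changed the scaling (size factors of DESeq2, or total counts only), the filter (none, or an average of 50 reads), the prior count (0.125 or 5), the table (log2 values), the model (no genotype term) and the call (no fold threshold, or the Wald test of DESeq2). Positions are from GENCODE M21 (GRCm38) and promoters from RefSeq (GRCm38.p6), not the build of the files. Genes of the lists without counts in the table were not analysed here.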

Additional observations from a re-analysis of the deposited data

Results flagged for a closer look

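For 4 list genes outside the 10 markers, the counting intervals put WT above and Fgf21KO below sham, or the reverse. The difference between the genotypes was not tested, since each group is 1 library, and the signs held with DESeq2's size factors and with total counts only. F13a1, a coagulation factor subunit made by resident macrophages, had 88 reads (WS), 190 (WD), 155 (KS) and 107 (KD), with log2 ratios of 0.61 in WT and -0.58 in Fgf21KO (difference -1.195). C7, a subunit of the complement pore, had 77, 149, 205 and 128 reads, with 0.45 and -0.73 (difference -1.183). Serping1, the inhibitor of C1, had 677, 1121, 1192 and 898 reads, with 0.24 and -0.47 (difference -0.702). Lum, a matrix proteoglycan of fibroblasts, had 753, 777, 698 and 809 reads and went the other way, with -0.44 and 0.15 (difference 0.598).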

How the results depend on the processing

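The 20 denervation ratios of the 10 members (WD vs WS and KD vs KS) were above 0 under each of the 8 settings of the scaling, filter, prior count and table. On the second table the median of WD vs WS was 0.848, and 2 members reached a 2-fold increase in WD vs WS, as did 2 in KD vs KS (4.36% and 4.52% of all genes). With total counts only, the median of KD vs KS was 1.17, 9 members (13.03% of all genes) were called higher with denervation, 1705 genes were called higher and 324 lower, and 5 genes were called higher for genotype. This scaling put the median of all genes at 0.287 (WD vs WS) and 0.364 (KD vs KS), and the members' medians stayed 1.08 and 0.81 above it. With a mean count of at least 50, 8 members were left, 2 were at least 2-fold higher in KD vs KS (6.54% of the 11316 genes then tested), 2 were called higher with denervation (6.25%; Adgre1 and Tyrobp were no longer tested), and 7 genes were called lower for genotype. Without a fold threshold, 8 members were called, with 3476 genes higher and 3527 lower for denervation and 41 and 47 for genotype. DESeq2's Wald test called 2 members higher for denervation (5.37% of all genes) and 5 genes higher and 8 lower for genotype. Without a genotype term, 4 members were called higher, with 865 genes higher and 802 lower. Of the other comparisons of a main value with an alternative, 121 were labelled the same. For counts this meant a count close to the main one, and for medians the same side of the 2-fold threshold. No paired analysis was possible because the labels give no replicate numbers and each group is 1 pooled library. Leaving out a library leaves no residual degree of freedom, so no such fit was made. The members with the fewest WS reads, Adgre1, Cd68, Cd163 and Tyrobp, had the widest intervals of denervated over sham.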

Other observations

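Some macrophage and complement genes outside the 10 markers, picked after their values were seen, also had unequal ratios in the 2 genotypes. None of these differences was tested across mice. Over all tested genes, the counting interval of the difference in response between genotypes lay above 0 for 14.2% and below 0 for 15.9%. Like Tyrobp, the integrin chain Itgam (36, 51, 11 and 65 reads for WS, WD, KS and KD) had log2 ratios in WT and Fgf21KO of 0.01 and 2.31. The pan-leukocyte phosphatase Ptprc (30, 69, 25 and 90 reads) had 0.68 (interval 0.07 to 1.38) and 1.71 (interval 1.14 to 2.49). Spi1, the gene of the transcription factor PU.1 (11, 30, 15 and 48 reads), had 0.86 (interval -0.08 to 2.10) and 1.498 (interval 0.76 to 2.56). The intervals of WT and Fgf21KO overlapped for both genes, and for Spi1 over most of their range. Like Cd163, the Fc receptor Fcgr3 (16, 75, 36 and 41 reads) had 1.64 in WT and 0.12 in Fgf21KO. C3 (237, 768, 473 and 449 reads) and C4b (100, 323, 186 and 211 reads) had 1.20 and -0.13, and 1.19 and 0.12. Both were listed here as complement genes, not as macrophage genes. The sign of C3 in KD vs KS depends on the scaling.

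Gpnmb, a glycoprotein of lysosomes picked in the same way, had 31 reads (WS), 596 (WD), 36 (KS) and 619 (KD), with log2 ratios of 3.71 and 3.97. The lysosomal proteases Lgmn (864, 3392, 973 and 3159 reads) and Ctsl (2714, 12284, 3747 and 11257 reads) had 1.48 and 1.64, and 1.69 and 1.53. Ctsb (8795, 12832, 11360 and 11880 reads), another lysosomal protease, had 0.05 and 0.01, so genes of lysosomes differed widely among themselves.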
